A study of Mus musculus with 54 samples.

Results

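The cyclic nucleotide phosphodiesterase genes *Pde1a*, *Pde1b*, *Pde1c*, *Pde2a*, *Pde4a*, *Pde4b*, *Pde4d*, *Pde7b*, *Pde8b* and *Pde10a* were followed in the mouse suprachiasmatic nucleus (SCN) through a day of light and darkness. The 10 genes were chosen by symbol, and their rows in the table of read counts were found through the Ensembl identifiers of GENCODE M21 on GRCm38. Of the 10, 9 had a row among the 30031 genes of the table, and all 9 passed the filter on low counts. The GENCODE M21 identifier of *Pde2a* had no row. A row annotated as *Gm45837*, a predicted gene on the same strand, covers much of it: 95.55% of the exon bases of *Gm45837* are also exon bases of *Pde2a*, and these make up 64.32% of the exons of *Pde2a*. The name *Gm45837* is that of GENCODE M21. The authors counted reads on an Ensembl annotation of their own time, and whether that annotation gave this row to *Pde2a* was not checked. That row is given on its own and is not counted among the 9.

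The SCN is the hypothalamic nucleus that holds the central circadian clock of mammals. The study laser-captured it from Nissl-stained sections of male C3H/HeH mice, aged between 10 and 12 weeks and kept under a 12:12 light/dark cycle, at zeitgeber times ZT2, ZT6, ZT10, ZT14, ZT18 and ZT22, where ZT0 is lights on and ZT12 lights off. Each of the 3 biological replicates per timepoint (A, B and C) was RNA pooled from 5 mice, which was amplified from a small input and sequenced on 3 lanes, and the 54 lane samples were deposited as 18 combined columns. The names of all 18 columns carry WT, read here as wild type. No genotype or treatment other than the time of day separates the groups.

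Cyclic AMP and cyclic GMP are made by adenylyl and guanylyl cyclases, act on protein kinases A and G, on the exchange factors EPAC and on cyclic nucleotide-gated channels, and are broken down by phosphodiesterases. The families differ in what they cleave and in what switches them on. PDE1 enzymes are activated by calcium and calmodulin and cleave both nucleotides, PDE2 is activated by cyclic GMP, PDE4, PDE7 and PDE8 are specific for cyclic AMP, and PDE10 cleaves both and is known above all from striatal medium spiny neurons. In the SCN, cyclic AMP is both an output of the clock and one of the signals that sustain it, and cyclic GMP takes part in the response to light.

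The libraries held between 15412981 and 35820945 gene-assigned reads each (median 25075231). Levels are given as CPM, the read count scaled to a common library total, after TMM normalization, which adjusts that total to the bulk of the genes, and as mean ± SD of n = 3 pools. Libraries of ZT22 and ZT2, those of ZT6 and ZT10, and those of ZT14 and ZT18 lie together in the principal component plot of the study, whose legend names sequencing batch beside timepoint. No timepoint lies in more than 1 of these 3 pairs, so in any difference between pairs the time of day and a batch that follows the pairs cannot be told apart. The 2 timepoints of a pair can be compared without that limit. Mitochondrial genes took between 6.57% and 10.35% of the counts at ZT6 and ZT10 and between 2.75% and 6.86% elsewhere. The summed level of 10 SCN neuron markers lay between 4385 and 6635 CPM at ZT14 and ZT18 and between 7459 and 14683 elsewhere. *Scg2* and *Vip*, with means of 4903 and 1855 CPM, weighed most in it. By timepoint means, these 2, *Nms*, *Prok2*, *Rorb* and *Rgs16* were lower at ZT14 and ZT18 than at ZT2 and ZT22. *Avp*, *Grp* and *Six6* were higher, with *Avp* at 54.5 and 24.8 CPM against 12.1 and 5.37, and *Lhx1* was mixed. Markers of telencephalic neurons summed to between 62.9 and 326 CPM, of neighbouring hypothalamic neurons to between 17.8 and 90.6, of microglia to between 105 and 287, and of endothelium to between 141 and 321.

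Scaled to length, *Pde1b*, *Pde1a* and *Pde4b* were the most abundant of the 9, with means over all 18 libraries of 14.8, 13.8 and 11.7 CPM per kb of exon. *Pde10a* followed with 6.53, *Pde4a* with 5.92, *Pde8b* with 4.62, *Pde7b* with 4.09 and *Pde4d* with 2.60 CPM per kb. *Pde1c* stood far below them at 0.165 CPM per kb, and its highest library (0.511) lay at about the level of the lowest library of *Pde4d* (0.458). The row of *Gm45837* stood above all 9, with 41.1 CPM per kb and a range between 29.1 and 65.3. The ranges over libraries were wide enough to reorder the genes by time of day: *Pde1b* ran from 6.27 to 44.5 CPM per kb and *Pde1a* from 3.49 to 29.7.

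**Figure D1:**
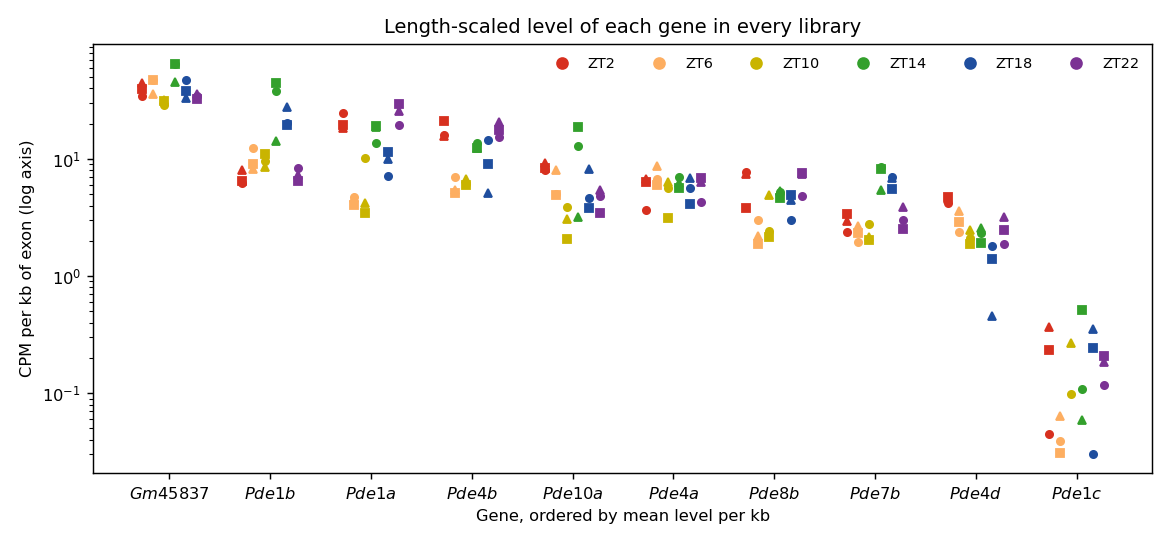
CPM per kb of exon (log axis) of the 9 phosphodiesterase genes and of *Gm45837*, one point per library, coloured by timepoint and with circles, squares and triangles for replicates A, B and C. *Pde1c* lies lowest, its highest library (0.511) just above the lowest of *Pde4d* (0.458) and 1 library at 0 reads left out of the log axis, and *Pde1b*, *Pde1a* and *Pde4b* lead the 9 genes in mean level.

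With edgeR's quasi-likelihood test over the 6 timepoints, 7 of the 9 genes changed with time (q under 0.05, Benjamini-Hochberg over all 18941 genes tested), namely *Pde1a*, *Pde1b*, *Pde4b*, *Pde4d*, *Pde7b*, *Pde8b* and *Pde10a*. Of all genes tested, 44.0% did so. With DESeq2 the same 7 genes were called, against 56.5% of the 17762 genes that kept an adjusted p. Of the 7, *Pde1a*, *Pde1b*, *Pde4b*, *Pde4d* and *Pde7b* also passed JTK_CYCLE, a rank test against a 24 hr cosine. Its p was multiplied by the 6 lags tried, called under 0.05 and not adjusted over genes. By both tests together, 5 of 9 genes counted as having a 24 hr rhythm, against 29.9% of all genes. The median difference between the highest and the lowest timepoint was a log2 of 1.66 over the 9 genes and 1.63 over all genes tested. Replicates of the highest and the lowest timepoint did not overlap for 7 of 9 genes (all but *Pde4a* and *Pde10a*), and for 78.5% of all genes. The members did not share a time of day. *Pde1a*, *Pde4b* and *Pde8b* were highest at ZT22 and ZT2 and lowest at ZT6 and ZT10, *Pde1b* and *Pde7b* were highest at ZT14 and ZT18, and *Pde4d* was highest at ZT2.

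**Figure D2:**
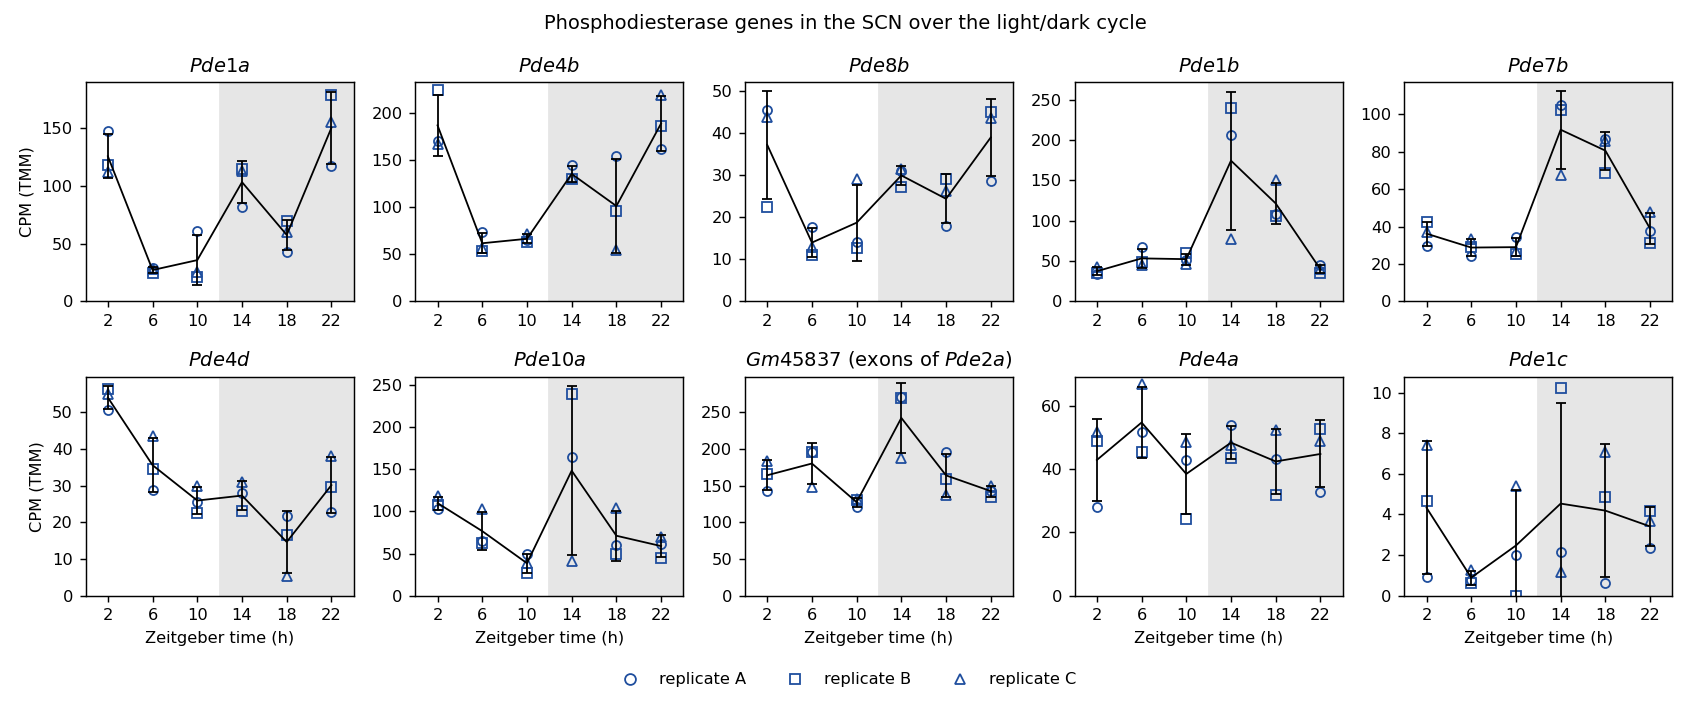
CPM of each gene against zeitgeber time in hours, with circles, squares and triangles for replicates A, B and C, lines through the timepoint means, bars of 1 SD (n = 3, cut at 0) and the dark phase in grey. *Pde1a*, *Pde4b* and *Pde8b* dip together at ZT6 and ZT10, *Pde1b* and *Pde7b* stand high at ZT14 and ZT18, and *Pde10a* has 2 high and 1 low library at ZT14.

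*Pde1a* encodes a calcium/calmodulin-activated enzyme and lies on chromosome 2 from 79834453 to 80129458 on the minus strand. Its replicates A, B and C measured 147, 118 and 111.5 CPM at ZT2, 28.7, 24.4 and 27.9 at ZT6, and 60.8, 20.96 and 25.15 at ZT10. In the dark phase they measured 81.9, 115 and 113 CPM at ZT14, 43.0, 69.3 and 59.99 at ZT18, and 117, 178 and 155 at ZT22. Every library of ZT2, ZT14 and ZT22 exceeded every library of ZT6, ZT10 and ZT18. From ZT6 (27.03 ± 2.27 CPM) to ZT22 (150.2 ± 31.0) the level rose by a log2 of 2.45, and the gene passed the time test (q = 1.88e-05) and JTK_CYCLE (p = 0.00672 from the exact null distribution, times 6 lags) with a peak at ZT22. The summed level of 8 markers of telencephalic excitatory neurons followed nearly the same split, with between 134 and 188 CPM at ZT2, 167 and 326 at ZT14 and 119 and 324.5 at ZT22, against 62.9 to 86.0 at ZT6, 76.2 to 157 at ZT10 and 81.7 to 111 at ZT18. The part of such cells in the values of *Pde1a* was not tested. The order of the means was ZT22, ZT2, ZT14, ZT18, ZT10 and ZT6, and of the neighbours in it only ZT14 and ZT18 had replicates that did not overlap.

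*Pde4b*, a cyclic AMP-specific enzyme with many promoters spread over 519.7 kb of chromosome 4 (102087543 to 102607259, plus strand), had the largest count of the 9 genes. It measured 170.4, 224.5 and 167 CPM at ZT2, 74.1, 54.0 and 57.3 at ZT6, and 64.8, 63.1 and 71.7 at ZT10. At night it measured 145, 130.2 and 131.5 CPM at ZT14, 154, 95.8 and 54.3 at ZT18, and 162, 186 and 219.7 at ZT22. All libraries of ZT22 and ZT2 stood above those of ZT14, and the ZT18 replicates spread from the level of ZT14 down to that of ZT6. Between ZT6 (61.8 ± 10.8) and ZT22 (189.4 ± 28.9) it rose by a log2 of 1.62 (time test q = 0.000118), with a JTK_CYCLE peak at ZT22 (p = 0.0178, exact null distribution).

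*Pde8b*, which encodes a cyclic AMP-specific enzyme of high affinity (chromosome 13, 95024454 to 95250336, minus strand), was less abundant and noisier. Its values were 45.3, 22.4 and 43.7 CPM at ZT2, 17.7, 11.1 and 12.97 at ZT6, and 14.2, 12.7 and 29.1 at ZT10, then 30.9, 27.2 and 31.5 at ZT14, 17.8, 29.0 and 26.2 at ZT18, and 28.4, 44.8 and 43.4 at ZT22. Replicates of ZT6 lay below all those of ZT22, while every pair of neighbours in the order of means overlapped. It changed with time (q = 0.00942, a log2 of 1.48 from ZT6 to ZT22) but did not pass JTK_CYCLE (p = 0.18, exact null distribution). With cosinor regression in place of JTK_CYCLE it also counted as rhythmic, which made 6 of 9 genes. An antisense gene, *Gm48420*, shares 7.6% of the exon bases of *Pde8b* and has no row of its own, so reads from either strand there cannot be told apart unless the counting used strand.

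Over the 6 timepoint means of log2 CPM, *Pde1a* correlated with *Pde4b* at r = 0.99 and with *Pde8b* at r = 0.99, and *Pde4b* with *Pde8b* at r = 0.98, as a description of 6 points that share libraries. A difference between the 3 pairs of timepoints made up 92.2%, 93.9% and 93.1% of the variance of the timepoint means of *Pde1a*, *Pde4b* and *Pde8b*, against a median of 90.3% over all genes that changed with time. The summed level of 8 astrocyte markers was also low at ZT6 and ZT10. It lay between 2952 and 3916 CPM there and between 4123 and 8632 in all other libraries. By timepoint means, *Aldoc*, *Slc1a3*, *Slc1a2*, *Gja1* and *Aldh1l1* were lower at ZT6 and ZT10 than elsewhere. *S100b* (374.5 CPM at ZT6, 231 at ZT14), *Aqp4* (160 at ZT6, 135.5 at ZT18) and *Gfap* (166 at ZT10, 149 at ZT2) were not. Whether cell content or mitochondrial share has a part in the low day values was not tested, and in tissue RNA fewer cells of a type and less RNA per cell cannot be told apart.

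The promoters of all 10 genes were read for the cyclic AMP response element, whose full form is TGACGTCA and whose half-site is TGACG (both strands). RefSeq promoter windows on GRCm38.p6, from 250 bases before to 50 after each start, gave 31 windows for the 10 genes, several per gene. None of the 31 held TGACGTCA, against 1.79% of all 32851 windows, and none held the E-box CACGTG (7.15%) or the D-box TTATGTAA (0.938%). The half-site, which is also part of every full element, was found in 5 of the 31 windows, a share below the 20.8% of all windows. These were 1 each of *Pde1a*, *Pde2a*, *Pde4a*, *Pde4b* and *Pde8b*. *Pde1a*, *Pde4b* and *Pde8b* had 4, 4 and 5 windows in which it could occur. The stretches around it in the 3 genes that moved together are shown 5′ to 3′ along the gene's strand, with the half-site or its reverse complement CGTCA in capitals. They lie at chr2:80039004-80039128 on the minus strand, 166 bases before the start, at chr4:102421461-102421585 on the plus strand, 34 bases before the start, and at chr13:95223001-95223072 on the minus strand, 38 bases after the start.
Pde1a: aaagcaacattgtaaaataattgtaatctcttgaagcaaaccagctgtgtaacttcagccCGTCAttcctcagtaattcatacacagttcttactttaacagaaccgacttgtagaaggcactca
Pde4b: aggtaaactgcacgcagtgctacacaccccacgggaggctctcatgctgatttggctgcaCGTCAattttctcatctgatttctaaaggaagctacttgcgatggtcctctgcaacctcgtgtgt
Pde8b: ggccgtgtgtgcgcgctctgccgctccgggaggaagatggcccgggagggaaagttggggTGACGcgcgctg
A match describes the letters of a window only, and the counts do not tell which of a gene's promoters was in use.

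*Pde1b*, the other calcium/calmodulin-activated enzyme (chromosome 15, 103503034 to 103530052, plus strand), had a different time course from *Pde1a*. It measured 33.8, 35.1 and 43.1 CPM at ZT2, 66.8, 48.5 and 44.4 at ZT6, and 51.7, 59.5 and 45.7 at ZT10. At night it measured 206, 240.1 and 77.4 CPM at ZT14, 109, 105.5 and 150.3 at ZT18, and 44.8, 34.9 and 39.5 at ZT22. All 6 libraries of ZT14 and ZT18 stood above the 12 others, although replicate C of ZT14 lay far below A and B and below all 3 of ZT18. The rise from ZT2 (37.3 ± 5.03) to ZT14 (174.6 ± 85.8) was a log2 of 2.07, with a time test q = 1.6e-05 and a JTK_CYCLE peak at ZT14 (p = 0.000147, exact null distribution).

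*Pde7b*, which encodes a cyclic AMP-specific enzyme (chromosome 10, 20398004 to 20725078, minus strand), was high at the same timepoints. Its values were 29.4, 42.3 and 37.0 CPM at ZT2, 24.2, 28.9 and 33.2 at ZT6, and 34.5, 25.4 and 27.04 at ZT10, then 105, 103 and 67.7 at ZT14, 87.0, 68.9 and 86.0 at ZT18, and 37.4, 31.2 and 48.0 at ZT22. Again all 6 libraries of ZT14 and ZT18 stood above the 12 others. The gene had the smallest time test q of the 9 (8e-06), rose by a log2 of 1.66 from ZT6 (28.8 ± 4.53) to ZT14 (91.8 ± 20.9), and had its JTK_CYCLE peak at ZT18 (p = 0.00224, exact null distribution). Differences between the pairs of timepoints made up 97.9% of the variance of the timepoint means of *Pde1b* and 99.3% of that of *Pde7b*. The summed level of 8 oligodendrocyte markers was also highest there, with between 4466 and 5610 CPM in the libraries of ZT14 and ZT18 and between 1217 and 4367 in all others. Its part in these values, like that of the lower sum of SCN neuron markers, was not tested.

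Markers of striatal neurons were read beside the ZT14 values, since *Pde1b*, *Pde7b* and *Pde10a* are also known from the striatum, and their part in these values was not tested. The sum over 9 such genes with a row, among them *Drd1*, *Drd2*, *Adora2a* and *Ppp1r1b*, was 670.5 CPM in ZT14 replicate A and 897 in ZT14 replicate B, but 112 in ZT14 replicate C. It was 395 in ZT6 replicate A, 365 in ZT18 replicate C and between 92.7 and 207 in the other 13 libraries together with ZT14 replicate C. *Ppp1r1b*, which encodes DARPP-32, measured 230 and 337 CPM in ZT14 replicates A and B and at most 60.5 outside the 4 libraries with the highest sums, and *Adora2a* measured 32.9 and 50.02 against at most 6.62. None of the 9 genes was at 0 in all libraries, *Drd2* had no read in 3 libraries and *Adora2a* in 2. Without ZT14 replicates A and B, the highest timepoint of *Pde1b* was ZT18, its rise from ZT2 to ZT14 was a log2 of 0.93 in place of 2.07, and that of *Pde7b* from ZT6 to ZT14 a log2 of 1.15 in place of 1.66. The same 7 of 9 genes changed with time without these 2 libraries and without the 4 with the highest sums. Within timepoints other than ZT14, deviations of the striatal sum and of the gene's level correlated at r = 0.75 for *Pde1b*, 0.25 for *Pde10a* and -0.13 for *Pde7b*, as a description over 15 libraries that share their depth and composition.

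**Figure D3:**
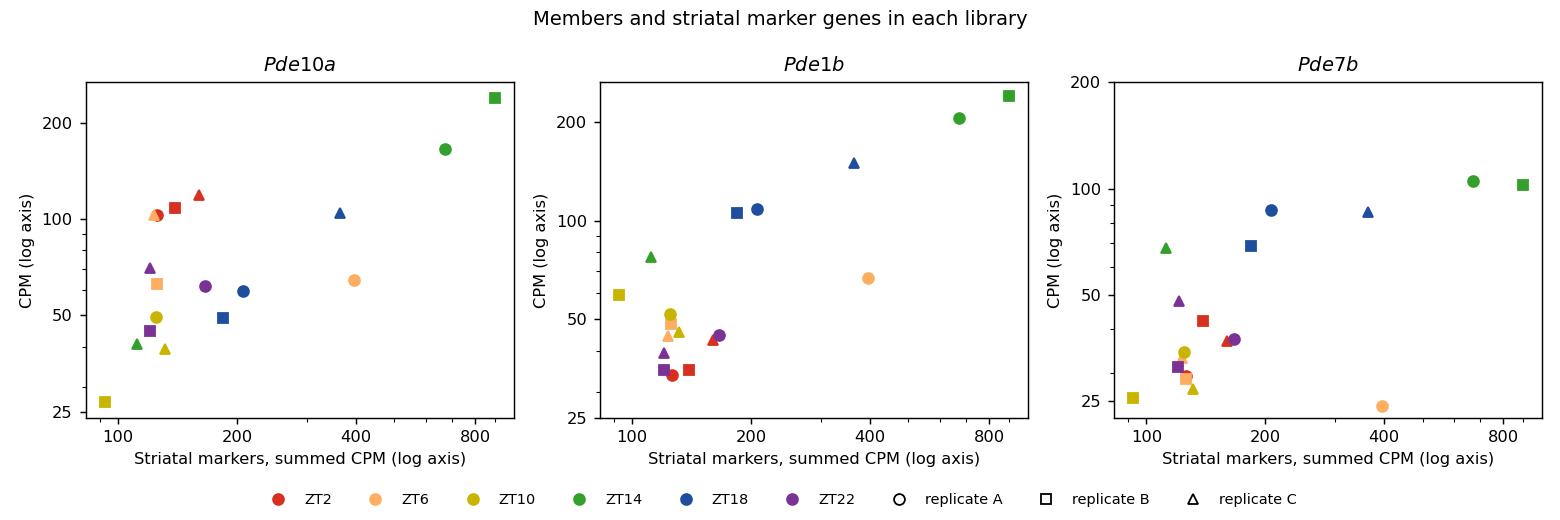
CPM of *Pde10a*, *Pde1b* and *Pde7b* (log axes) against the summed CPM of striatal marker genes, one point per library, coloured by timepoint and with circles, squares and triangles for replicates A, B and C. ZT14 replicates A and B, at 670.5 and 897 CPM of striatal markers, hold the highest values of all 3 genes.

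Set against each other within a library, the PDE1 genes changed places. Per kb of exon, *Pde1b* stood at between 0.218 and 0.430 of the level of *Pde1a* in the 6 libraries of ZT22 and ZT2. In the 12 others the ratio lay between 0.765 and 3.16, and it was above 1 in all but ZT10 replicate A (0.948) and ZT14 replicate C (0.765). *Pde1a* made up 74.5% of the summed PDE1 level at ZT2 and 76.8% at ZT22, but 29.6% at ZT18 and 31.2% at ZT6. The sum itself was highest at ZT14, with 49.7 ± 15.6 CPM per kb (n = 3), and lowest at ZT6, with 14.4 ± 2.42. Within the pairs of timepoints the ratio of *Pde1b* to *Pde1a* did not separate, with exact permutation p-values of 0.6 for ZT14 and ZT18, 0.7 for ZT22 and ZT2, and 0.8 for ZT6 and ZT10 (two-sided).

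*Pde4d*, which encodes another cyclic AMP-specific enzyme of the PDE4 family (chromosome 13, 108449948 to 109953461, plus strand, 1503.5 kb), followed neither course. It measured 50.5, 56.5 and 55.0 CPM at ZT2, 28.8, 34.4 and 43.5 at ZT6, and 25.5, 22.5 and 29.8 at ZT10, and then 27.9, 23.1 and 30.9 at ZT14, 21.8, 16.6 and 5.49 at ZT18, and 22.7, 29.6 and 38.1 at ZT22. The ZT2 libraries stood above all others and the ZT18 libraries below all others. It fell by a log2 of 2.09 from ZT2 (54.0 ± 3.08) to ZT18 (14.6 ± 8.33), a difference of 1.499 without ZT18 replicate C, changed with time (q = 0.00599) and had its JTK_CYCLE peak at ZT2 (p = 0.0319, exact null distribution). Differences between pairs of timepoints made up only 53.6% of its variance over time. Its rhythm was lost with the reads recovered from the normalized table and without any one of ZT2 replicates A and B and ZT6 replicates B and C.

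*Pde4a*, a further PDE4 gene, on chromosome 9 (21165714 to 21213248, plus strand), was the steadiest of the abundant members. Its timepoint means ran from 38.5 ± 12.8 CPM at ZT10 to 54.8 ± 11.1 at ZT6 (n = 3), single libraries from 24.1 to 67.1, and no neighbours in the order of means were separate. It did not pass the time test (q = 0.666) or JTK_CYCLE (p = 1, exact null distribution). The share of *Pde4a* in the summed PDE4 level was 20.1% at ZT2 and 22.3% at ZT22 and 44.8% at ZT6, where *Pde4b* took 36.6% after 63.7% at ZT2.

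The ratio of *Pde4b* to *Pde4d*, per kb of exon, was 3.83, 4.52 and 3.45 in the ZT2 libraries and 8.13, 7.14 and 6.56 in those of ZT22. These 2 timepoints belong to one pair, and the 3 libraries of ZT22 all lay above the 3 of ZT2, by 1.85-fold (log2 difference 0.89, average SD 0.18). The ratio was 5.92, 6.42 and 4.83 at ZT14 and 8.05, 6.54 and 11.2 at ZT18, again without overlap, and it was lowest at ZT6 with 2.93, 1.78 and 1.497. The exact permutation p was 0.1 for ZT22 and ZT2 and 0.1 for ZT14 and ZT18 (two-sided), the smallest that 3 against 3 libraries allow, and 0.3 after adjustment over the 6 comparisons of ratios.

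**Figure D4:**
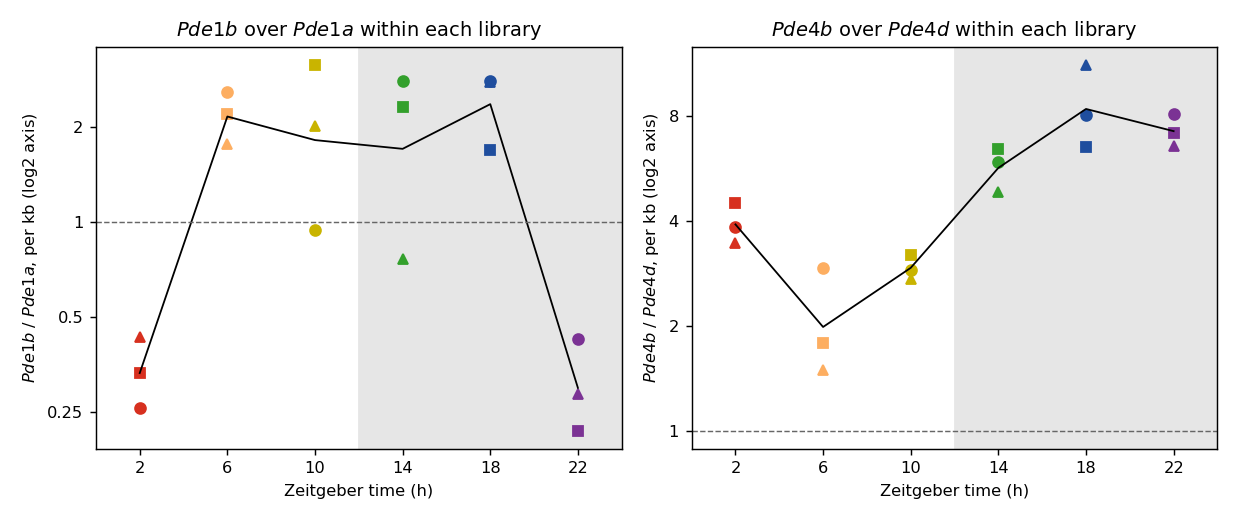
Ratios of *Pde1b* to *Pde1a* and of *Pde4b* to *Pde4d* per kb of exon (log2 axes) in each library against zeitgeber time in hours, with circles, squares and triangles for replicates A, B and C, lines through the geometric means and the dark phase in grey. *Pde1b* over *Pde1a* lies under 0.5 only at ZT22 and ZT2, and *Pde4b* over *Pde4d* is lowest at ZT6 and highest at ZT18.

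*Pde10a*, which encodes a dual-substrate enzyme (chromosome 17, 8525372 to 8986648, plus strand), varied widely within ZT14. It measured 103, 108 and 118.5 CPM at ZT2, 64.4, 62.8 and 103 at ZT6, and 49.6, 26.8 and 39.3 at ZT10. At night it measured 165, 239 and 40.7 CPM at ZT14, 59.6, 49.2 and 105 at ZT18, and 61.6, 44.8 and 70.2 at ZT22. ZT14 thus held the 2 highest libraries of all and a low one, and the groups overlapped at most timepoints. The 2 highest were those with the highest striatal marker sums. The gene passed the time test (q = 0.0171), lost that call without ZT14 replicate B, and kept it without A and B together (q = 0.0114). Without both of these it was highest at ZT2, its difference between ZT14 and ZT10 was a log2 of 0.04 in place of 1.65 (2.41 without ZT14 replicate C), and it passed JTK_CYCLE, which raised the count of rhythmic genes from 5 to 6. With all libraries its JTK_CYCLE p was 1 (exact null distribution).

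The row of *Gm45837*, on chromosome 7 from 101410886 to 101512819, lies over *Pde2a* (101421691 to 101512827, plus strand), the gene of the enzyme that cyclic GMP activates. It measured 143, 165 and 184 CPM at ZT2, 196.5, 196 and 148 at ZT6, and 120.4, 130.2 and 132 at ZT10. At night it measured 270.2, 269.5 and 187 CPM at ZT14, 196, 158 and 137.5 at ZT18, and 143, 135 and 149.8 at ZT22. Replicates A and B of ZT14 stood above all other libraries and the ZT10 libraries below all others. It passed the time test (q = 0.00495) and lost it without ZT14 replicates A and B (q = 0.136). *Pde1c* (chromosome 6, 56069804 to 56569103, minus strand), the remaining gene of a calcium/calmodulin-activated enzyme, held 1574 reads over all libraries and between 0 and 10.2 CPM. It had no read in ZT10 replicate B, where a count of 0 allows up to 0.130 CPM (3 reads, counting error only), and no change with time was detectable at this level (q = 0.578).

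Comparisons inside a pair of timepoints do not depend on a batch that follows the pairs. In each of the 4 comparisons made, 0 of the 9 genes passed a q of 0.05, in edgeR as in DESeq2, where *Pde1c* had no adjusted p for ZT22 and ZT2 and 8 genes were left. The background was low too, with 0.570% of all genes for ZT14 against ZT18, 0.0317% for ZT22 against ZT2 and 0.0475% for ZT6 against ZT10. It was 0.148% for the mean of ZT14 and ZT22 against the mean of ZT18 and ZT2, called the twin-peak contrast here. The study did not use this contrast. It found its twin-peaking genes as a module of coexpressed genes, tested them with DESeq2 over all timepoints and checked some by quantitative PCR. The contrast leaves out ZT6 and ZT10, so its share is not a count of twin-peaking genes. With DESeq2 the shares for the 4 comparisons, in the same order, were 5.17%, 0.447%, 1.48% and 3.32%. They were taken over the genes that kept an adjusted p, which numbered 16310, 9386, 17033 and 14142. At an unadjusted p under 0.05 the counts were 3 of 9 (background 13.5%), 1 of 9 (3.59%), 1 of 9 (10.8%) and 1 of 9 (10.6%).

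The 3 genes for ZT14 against ZT18 were *Pde1a*, higher at ZT14 by a log2 of 0.84 (95% interval 0.19 to 1.497, q = 0.221), *Pde4d*, higher by 0.89 (0.17 to 1.62, q = 0.252), and *Pde10a*, higher by 1.06 (0.14 to 1.99, q = 0.285). Without ZT14 replicates A and B the ZT14 side is replicate C alone, whose spread is taken from the other timepoints, and the value of *Pde10a* turned to -0.88. *Pde1b*, at 0.52 (-0.10 to 1.15) with all libraries, turned to -0.72, and *Pde7b*, at 0.19 (-0.28 to 0.66), to -0.31, while *Pde1a* stood at 0.91. *Pde4d* depended more on ZT18, with 0.51 without ZT18 replicate C and 1.29 without ZT18 replicate A, and *Pde10a* stood at 0.53 without ZT14 replicate B alone. *Gm45837* was higher at ZT14 by 0.56 (0.19 to 0.94, q = 0.154), was called by DESeq2 (adjusted p = 0.0437), and stood at 0.14 without them.

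For ZT22 against ZT2, *Pde4d* was lower at ZT22 by a log2 of -0.84 (-1.56 to -0.12, q = 1), and *Pde10a* had a like value with an interval that reached 0 (-0.90, -1.82 to 0.02). For ZT6 against ZT10, *Pde10a* was higher at ZT6 by 0.99 (0.06 to 1.92, q = 0.437), and *Gm45837* by 0.50 (0.12 to 0.88, q = 0.38). For the twin-peak contrast, *Pde1a* stood at 0.55 (0.09 to 1.01, q = 0.352). The median of the 8 telencephalic markers had the same sign, with a log2 difference of 1.28 in this contrast and of 1.32 for ZT14 against ZT18, 1 of 8 was called in each, and their part was not tested. The intervals of *Pde4b* lay between -0.66 and 0.97 in all 4 comparisons and those of *Pde7b* between -0.49 and 0.66, which leaves a log2 difference of 1 outside them.

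**Figure D5:**
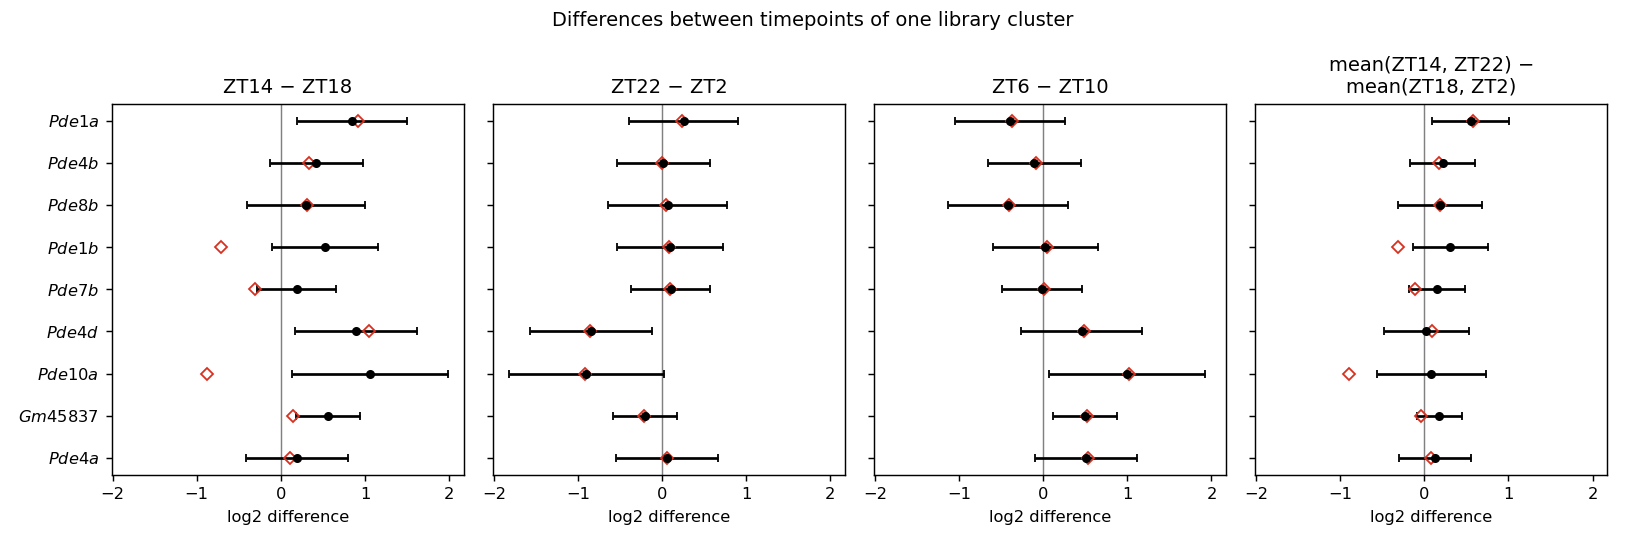
Log2 differences between timepoints of a pair for 8 of the 9 genes and for *Gm45837*, with 95% intervals from the edgeR fit to all 18 libraries (black) and the value without ZT14 replicates A and B (open red diamonds). Intervals of *Pde1a*, *Pde4d*, *Pde10a* and *Gm45837* exclude 0 for ZT14 minus ZT18, and the diamonds of *Pde10a*, *Pde1b* and *Pde7b*, which rest on a single ZT14 library, lie on the other side of 0 there.

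Among genes with a mean of at least 10 CPM, those whose 6 timepoint means were most like a member's were *Ablim1* and *Cacnb4* for *Pde1a* (Pearson r of 0.999 and 0.998), *Naa25* and *Atp6ap1* for *Pde4b* (0.9997 and 0.998), and *Gm5424* and *Jakmip2* for *Pde8b* (0.998 and 0.998). Such likeness was common for these 3, since 405, 495 and 464 genes had an r above 0.95 with them. For *Pde7b* they were *Ivns1abp* and *Plekhm1* (0.997 and 0.996), with 109 genes above 0.95, and for *Pde1b* a gene without a symbol (ENSMUSG00000082697) and *Fbxl18* (0.996 and 0.996), with 158. For *Pde4d* they were *Xpo4* and *Abca8b* (0.982 and 0.978), with 17 above 0.95, and for *Pde10a* *Tcf20* and *Usp46* (0.988 and 0.981), with 4. *Pde4a* had no gene above 0.95, with *Mbtps2* nearest (0.9498), and the low *Pde1c* was most like *Gstp1* and *Tmem229b* (0.999 and 0.999).

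Of 14 other phosphodiesterase genes, 13 were tested and 2 changed with time (44.0% of all genes). *Pde9a*, whose enzyme is specific for cyclic GMP, was highest at ZT2 with 58.0 ± 7.12 CPM (n = 3) and lowest at ZT10 with 16.2 ± 3.48 (q = 2.97e-06), and so was high at ZT22 (51.2 ± 5.68) and low at ZT6, as *Pde1a* and *Pde4b* were, but also low at ZT14 (19.2 ± 0.676). *Pde6d*, which encodes a carrier of prenylated proteins, ran from 15.4 ± 1.94 CPM at ZT2 to 55.2 ± 5.88 at ZT10 (q = 0.000145). *Pde3b*, *Pde7a* and *Pde8a* had means of 8.81, 12.4 and 5.74 CPM and did not pass (q of 0.581, 0.153 and 0.607), and the other genes of the list were no more abundant than *Pde1c*.

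On the synthesis side, 6 of 10 adenylyl cyclase genes changed with time, and *Adcy1*, activated by calcium and calmodulin, ran from 29.5 ± 4.51 CPM at ZT6 to 239.7 ± 62.2 at ZT14 and 259 ± 147 at ZT22 (q = 3.01e-05). *Adcy2* was highest at ZT2 (145 ± 27.1, q = 9.13e-05), and *Adcy5*, the main adenylyl cyclase of the striatum, at ZT14 (206 ± 106, q = 0.000389). Of 9 guanylyl cyclase genes, 5 changed. *Gucy1b1*, the beta subunit of the nitric oxide receptor, led with 50.2 ± 7.25 CPM at ZT6 and 177 ± 11.2 at ZT14 (q = 6.73e-07). *Gucy1a2* (q = 0.00685) and *Gucy1a1* (q = 0.00857) came next. The others among the 5 held only 66 and 44 reads over all libraries, so their calls rest on very few reads.

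Of 12 effectors of cyclic AMP, 9 changed, among them the protein kinase A genes *Prkacb*, from 271 ± 23.4 CPM at ZT10 to 768.5 ± 192 at ZT2 (q = 1.68e-05), *Prkar1a*, highest at ZT2 (q = 0.000291), and *Prkaca*, which had its high value at ZT10 (123 ± 18.7, q = 0.000394). Of 5 tested effectors of cyclic GMP, only *Prkg2* changed (q = 0.0137), with 77.0 ± 10.5 CPM at ZT18 and 43.1 ± 12.96 at ZT6, and *Cnga4* and *Cnga3* did not pass (q of 0.225 and 0.562). Among calmodulin and its buffers, 4 of 5 tested genes changed. *Calm3* was lowest at ZT2 (229.9 ± 30.6 CPM) and highest at ZT6 (812 ± 44.9, q = 1.62e-07), and *Nrgn*, a calmodulin-binding protein of forebrain neurons, was highest at ZT14 (186 ± 40.2, q = 0.000923). The counts of these lists describe them only, beside 44.0% of all genes.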

How the data were processed

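Laser-captured SCN RNA from 18 biological replicates (6 timepoints, 3 each) was analysed. After quality filtering, the authors aligned the reads to mm10/GRCm38 with GSNAP and counted them with HTSeq on a joint annotation of Ensembl genes and lincRNAs. They deposited these read counts, whole numbers without normalization and with lanes combined, for 30031 genes. They also deposited a normalized signal, the counts divided by 1 size factor per library (the methods name DESeq2), for 31077 genes. All of its values (100%) were whole multiples of 1 step per library (tolerance 0.1 read), so whole reads were recovered as an alternative. Recovered and counted reads were identical for between 36.8% and 47.1% of shared genes in the libraries of ZT6 and ZT10, and for between 94.7% and 96.3% elsewhere. With recovered reads the rise from ZT6 to ZT22 was a log2 of 2.45 for *Pde1a*, 1.49 for *Pde4b* and 1.51 for *Pde8b*. Deposited sample columns not used numbered 0. Whether counting used strand, and how reads of several loci were treated, is not given in the sources used here.

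CPM after TMM scaling, quasi-likelihood tests over time and 4 contrasts came from one fit to all 18 libraries (edgeR 4.0.16, R 4.3.3). Genes entered it when more than 6 libraries held a read (minimum 1), which left 18941, with Benjamini-Hochberg adjustment over all of them and a threshold of 0.05. JTK_CYCLE was written anew in Python 3.11.15 (numpy 2.4.6, pandas 2.3.3, scipy 1.17.1) for 24 hr and 6 lags on log2 CPM (prior count 2), and a gene counted as rhythmic when it passed both tests. The scripts were tested on simulated data. Exon lengths are merged exons of GENCODE M21, and promoters are from RefSeq. Exact permutation tests compared ratios. Over all libraries the members held between 12868 and 59775 reads each, *Pde1c* 1574. Replicates are separate pools of mice.

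The alternatives were DESeq2 1.42.0 size factors or tests, upper-quartile normalization, other filters, robust dispersion, replicate letters as a block, recovered reads, limma 3.58.1 cosinor regression, single replicates left out, and the timepoints compared alone. Fits without the 2 or 4 libraries highest in striatal markers were added after seeing the data. All members were named, as were genes of the marker lists where the genes of a list were compared. Of other phosphodiesterases those at least as abundant as *Pde1c* were named, of other lists up to 3 genes with the smallest time test p, and for each member the 2 genes most like it, except that 2 genes under these rules are not reported here. Members and lists were chosen with earlier results of these data known.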

Additional observations from a re-analysis of the deposited data

How the results depend on the processing

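The count of 7 genes that changed with time, the counts of 0 in the 4 comparisons inside pairs and the count of rhythmic genes moved by less than 1.5 times under all alternatives that were run. Leaving out each replicate in turn gave between 6 and 7 genes that changed with time, between 4 and 5 with a rhythm, and 0 in each comparison inside a pair. Without the 2 libraries highest in striatal markers the log2 difference of *Pde10a* between ZT14 and ZT18 reversed to -0.88, and without the 4 highest to -0.43, from 1.06 with all libraries, with ZT14 replicate C alone on the ZT14 side. Replicate letters did not pair the libraries: the correlation of same-letter deviations over genes lay between -0.315 and 0.096 over 45 pairs of libraries, and 0 of the 45 exceeded 0.1. A block by letter left 7 genes changed with time, 5 rhythmic and 0 in each comparison. For *Pde1c*, at a few CPM, the SE of the 4 comparisons lay between 0.82 and 1.20 on the log2 scale, so only large changes could have been seen. Amplification of small RNA inputs adds spread that these pools cannot separate from that between mice.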
